A study of Mus musculus with 6 samples.

Results

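The region described here is the stretch of mouse chromosome 15 from 60000001 to 62300000 (build mm10, 2.3 Mb) that ends with Myc and Pvt1. It was chosen by the density of the deposited peaks. Its members are the peaks of either list whose summit lies between these positions, which were 506 of the 6444 DMSO peaks (7.85%) and 41 of the 491 treated peaks (8.35%), or 547 of 6935 in all. Because peak positions chose the members, their number and spacing are descriptions with no test, and so are the coverage and fold of the same peaks.

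The peaks came from BrITL, an assay in which broken DNA ends in permeabilised cells are tagged with a biotinylated nucleotide, captured on streptavidin beads and sequenced, so that a peak is a place where captured fragments gathered. All 6 samples were passage-immortalised mouse embryonic fibroblasts of the genotype ATR+/-, expressing Bcl-xL, an inhibitor of cell death, so the vehicle controls shared the heterozygous checkpoint kinase gene and the added Bcl-xL. The vehicle group had 18 h of DMSO, with 2 pull-downs and 1 input. The treated group had 18 h of 1 µM ATR-45, an ATR inhibitor, with 0.2 µM aphidicolin, an inhibitor of replicative DNA polymerases, again with 2 pull-downs and 1 input. The drugs were given together, so their effects cannot be told apart. Each condition was deposited as 1 pooled list with no value per sample. No value below therefore has a replicate error, a difference between the lists has no replicate check, and no p-value is given. The labels do not say whether the cells were 1 line or several, and a list of DNA peaks holds no expression marker by which the cell type could be checked.

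Myc encodes a transcription factor that pairs with Max, binds E-box sequences and drives genes of growth and division. Pvt1 is a long non-coding RNA gene beside it. The stretch on the other side of Myc is poor in protein-coding genes and holds enhancers that act on Myc in several tissues. Copy gains of the Myc and Pvt1 neighbourhood are known from many tumours and cultured lines. An input library is made from the same cells without capture, so its coverage follows how much of each stretch of DNA was present and could be mapped.

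The reference table places 22 genes wholly or partly in the region, of which 4 are protein-coding, 7 are lncRNAs, 8 are pseudogenes and 3 are small RNA genes. The promoter table, from RefSeq on GRCm38.p6, the assembly behind mm10, had entries for 7 of the 22. Myc, Pvt1 and Lratd2 have none. The 250 bases before the start of 3 genes are printed below, each 5′ to 3′ on the strand of its gene, chosen from the 4 windows that lay wholly under a DMSO peak (the fourth, of Gm29904, held neither motif below). Capitals mark a CACGTG, the E-box that Myc and Max bind, or a run containing TGTGTGTGTGTG, a repeat that can be hard to replicate. Both motifs were searched on both strands, and they do not overlap each other.
A1bg, chr15:60921271-60921520, minus strand: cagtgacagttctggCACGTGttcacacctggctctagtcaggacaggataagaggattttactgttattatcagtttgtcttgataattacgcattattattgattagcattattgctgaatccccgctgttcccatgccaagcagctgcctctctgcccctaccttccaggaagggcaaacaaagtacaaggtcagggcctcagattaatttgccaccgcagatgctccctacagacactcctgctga
4933412E24Rik, chr15:60016619-60016868, minus strand: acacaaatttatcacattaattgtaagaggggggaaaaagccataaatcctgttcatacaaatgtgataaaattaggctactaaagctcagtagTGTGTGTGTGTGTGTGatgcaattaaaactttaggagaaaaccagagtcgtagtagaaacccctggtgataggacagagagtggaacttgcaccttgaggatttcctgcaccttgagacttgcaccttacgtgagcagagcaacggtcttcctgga
Gm38563, chr15:61156907-61157156, plus strand: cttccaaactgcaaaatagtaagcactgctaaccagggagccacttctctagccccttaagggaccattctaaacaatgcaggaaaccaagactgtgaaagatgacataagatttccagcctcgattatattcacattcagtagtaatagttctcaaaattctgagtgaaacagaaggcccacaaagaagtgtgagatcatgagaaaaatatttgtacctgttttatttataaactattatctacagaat
The A1bg window held 1 CACGTG, a motif present in 6.02% of the 32817 promoter windows of the same length. The 4933412E24Rik window held the TG run, present in 0.881% of them, and the Gm38563 window held neither motif. Their GC shares of 47.2%, 42.0% and 36.8% were all below the median of 52.4% over all windows. The summits of the peaks that cover them lay 1.96 kb (A1bg), 6.53 kb (4933412E24Rik) and 0.931 kb (Gm38563) from the windows, so the printed bases were under broad peaks and not at their tops.

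DMSO peaks filled most of the region. Together they covered 66.9% of its bases, whereas treated peaks covered 1.13%. The median gap between neighbouring DMSO peaks was 272 bp, and 358 of 505 gaps (70.9%) were 1 kb or less. Joined across such gaps, the 506 peaks formed 148 blocks, the longest of 210.9 kb (62015984 to 62226893, 22 peaks), which ran from before Pvt1 through most of it. The 41 treated peaks formed 33 blocks of at most 5.30 kb, with a median gap of 21.7 kb. The DMSO list thus gave long blocks of peaks with gaps between them, and the treated list scattered narrow peaks. The lowest −log10 q of any deposited peak was 18.5 for DMSO but 3.38 for treated, so the lists do not reach down to the same q. What this difference contributes to the contrast in cover and blocks was not tested. Peak names carry numbers that rise along the genome, and numbers missing between members were read as calls that did not enter the deposited lists. On that reading the region held 854 DMSO calls and 1326 treated calls before the deposited lists were made. Over the whole lists the order was the reverse, since the highest number was 64322 for DMSO and 5400 for treated. Whether both sets of calls were made at the same threshold is not known. Of the region's calls, 506 DMSO calls (59.3%) were kept, against 10.0% over the whole list, and 41 treated calls (3.09%), against 9.09%.

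**Figure D1:**
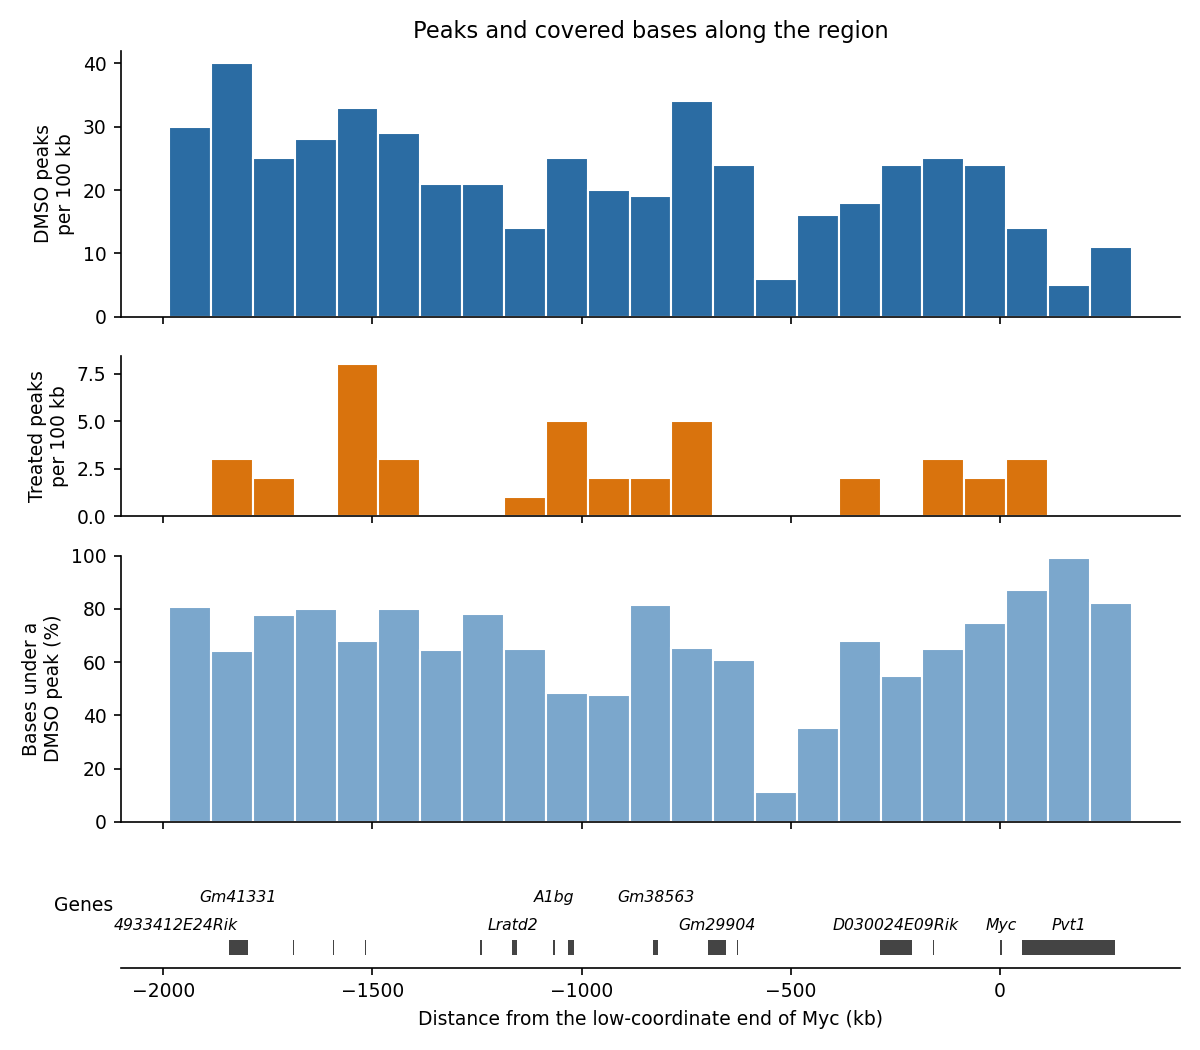
DMSO peaks per 100 kb (top), treated peaks per 100 kb (middle) and the percent of bases under a DMSO peak (lower panel) along the region, with genes drawn to scale as bars. The x axis is the distance in kb from the low-coordinate end of Myc. Peak counts fell toward Pvt1 while the covered share rose there, to 99.3% in a bin with 5 peaks.

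Counts per 100 kb and covered share did not run together. The densest bin, from 60100001 to 60200000, held 40 DMSO peaks and was 64.3% covered. The bin from 62100001 to 62200000, inside Pvt1, held only 5 peaks but was 99.3% covered, because these peaks were wide (median 21.7 kb). The least covered bin, from 61400001 to 61500000, held 6 peaks over 11.1% of its bases. It opens the longest stretch with no DMSO peak, 111.9 kb from 61419681 to 61531550, in which no treated peak lay either. Treated peaks were densest from 60400001 to 60500000, with 8 peaks. Outside the region, the densest 100 kb of the DMSO list held 13 peaks (chromosome 13, 23500001 to 23600000) and that of the treated list held 4 (X chromosome).

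The limits set by the rule do not match the limits of the dense peaks at the low-coordinate side. Below 60000001 lay 4 more DMSO peaks of the same kind, with summits at 59962476, 59963892, 59975628 and 59988140 and folds of 4.82, 4.84, 5.23 and 4.21. The first peak inside, at 60000691, had a fold of 4.34. The next peak further down, at 59824071, had a fold of 8.91 and an input coverage of 3 fragments, close to the genome's background. At the high-coordinate side the last dense peak inside, at 62272322, had a fold of 3.67 and an input coverage of 30 fragments, and the first outside, at 62328229, had 16.8 and 2.65 fragments. Treated peaks began at 60116954 and ended at 62079285, and the nearest others on the chromosome lay 22.6 Mb below and 18.3 Mb above the region.

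The authors' fold is the pull-down coverage over the local background at the summit, each plus 1, and both coverages were recovered from the fold and p of each peak. In the DMSO list, the pull-down coverage at summits had a median of 94 fragments (quartiles 82 to 121) inside the region and 48 fragments outside it. The genome's pull-down background was 2.88 fragments. The median fold ran the other way, at 4.91 inside (range 2.93 to 10.2) and 11.3 outside. Peaks of the region thus had more captured fragments but a lower fold than other peaks. Input beneath them was higher: it had a median of 15.0 fragments, 6.48 times the genome's background of 2.32. In the treated list, the pull-down median was 112 fragments inside and 41 outside, and the fold median was 2.76 inside and 5.30 outside. The treated pull-down background was 5.14 fragments, so pull-down fragments of the 2 lists, here and below, are not on one scale. Input coverage beneath the treated peaks of the region had a median of 16.2 fragments, 7.15 times the background of 2.26. Input and pull-down coverage at peaks were thus both higher here than at other peaks, in both conditions. Pull-down coverage is known only at called peaks, and the caller asks for more captured fragments where the input is higher. The higher pull-down is therefore not a finding separate from the higher input. The number of copies of this DNA in the cells was not tested.

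**Figure D2:**
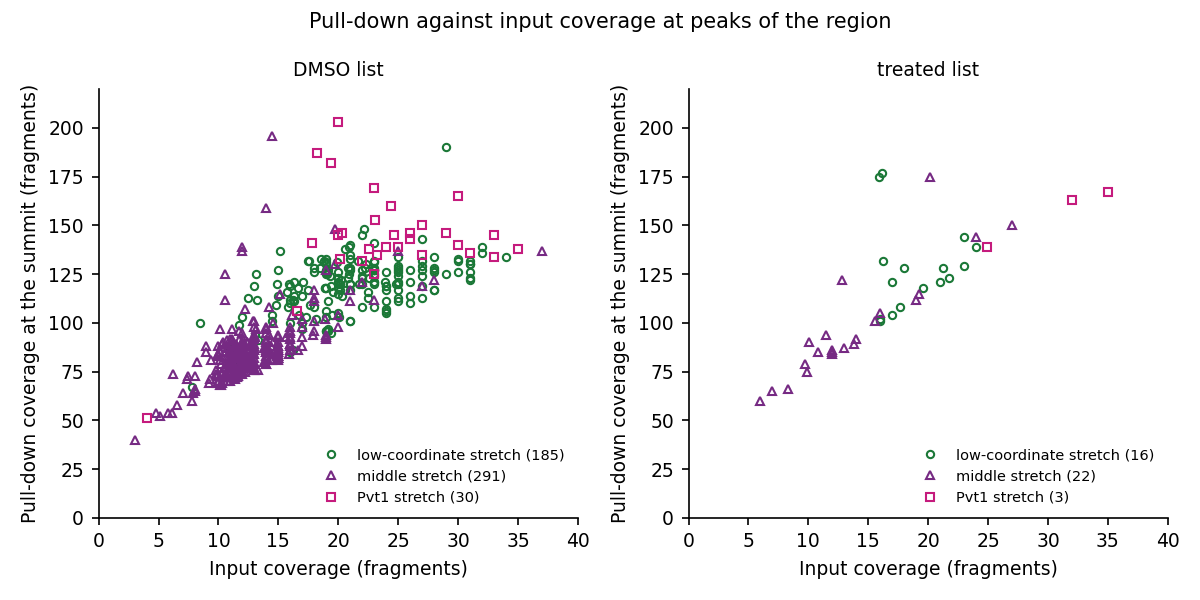
Pull-down coverage at the summit (y axis, fragments) against input coverage (x axis, fragments) for the 506 DMSO peaks (left) and 41 treated peaks (right), by stretch of the region. Each point is 1 peak. Peaks of higher input coverage had more captured fragments, and the Myc peak (196 fragments) and the Lratd2 peak (159 fragments) stand above the DMSO peaks of like input.

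Pull-down and input coverage rose together from peak to peak. Spearman's rho was 0.83 over the 506 DMSO peaks and 0.85 over the 41 treated peaks, while fold and input ran against each other (−0.74 and −0.77). Over the larger-window averages alone, rho was 0.78 and −0.55 for DMSO (125 peaks) and 0.54 and −0.29 for treated (11 peaks). These are descriptions: input is the denominator of the fold, the peaks share their libraries, neighbouring peaks share input, and the caller asks for more captured fragments where the input is higher.

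High input beneath a peak was common in the region and rare elsewhere. In the DMSO list, 504 of 506 peaks (99.6%) had input at 2 times the background or more, against 9.85% of the whole list and 131 of the 5938 peaks outside. At least 4 times was reached by 484 of 506, against 8.13% of the whole list and 40 of 5938 outside. In the treated list all 41 peaks reached 2 times, against 14.7% of the whole list, and 38 reached 4 times, against 9.98%. The 2 DMSO members under 2 times lay beside the gaps in the cover. One, at 61532711, is the first peak after the long gap, with an input of 3 fragments and a fold of 8.30. The other, at 62287261, is the last peak of the region, with 4 fragments and a fold of 8.41.

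The recovered input values of the region had 2 origins. Whole values are fragments lying over the summit itself, and values in fine steps are averages over a wider window around it. The settings of the caller are not given in the sources used here, and its defaults are windows of 1 and 10 kb. Such an average of at least 2 times the background stood behind 247 of the 506 DMSO peaks, against 3.93% of the whole list, and behind 20 of the 41 treated peaks, against 4.07%. Outside the region 6 of 5938 DMSO peaks and 0 of 450 treated peaks had one, and 2 of the 6 belong to the dense peaks just below 60000001. Of the 40 DMSO peaks outside that reached 4 times, 37 had a value counted over the summit, and the median width of the 40 was 249.5 bp. The 484 such peaks of the region were 2085 bp wide at the median, and 233 of them rested on a window. A value counted over the summit gives no measure of the window around it beyond that the window average was no higher. Of the summit values just below 60000001, those at 59963892 and 59988140 (9.50 and 11.7 times) lay between or beside window averages of 8.24 and 9.69 times.

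**Figure D3:**
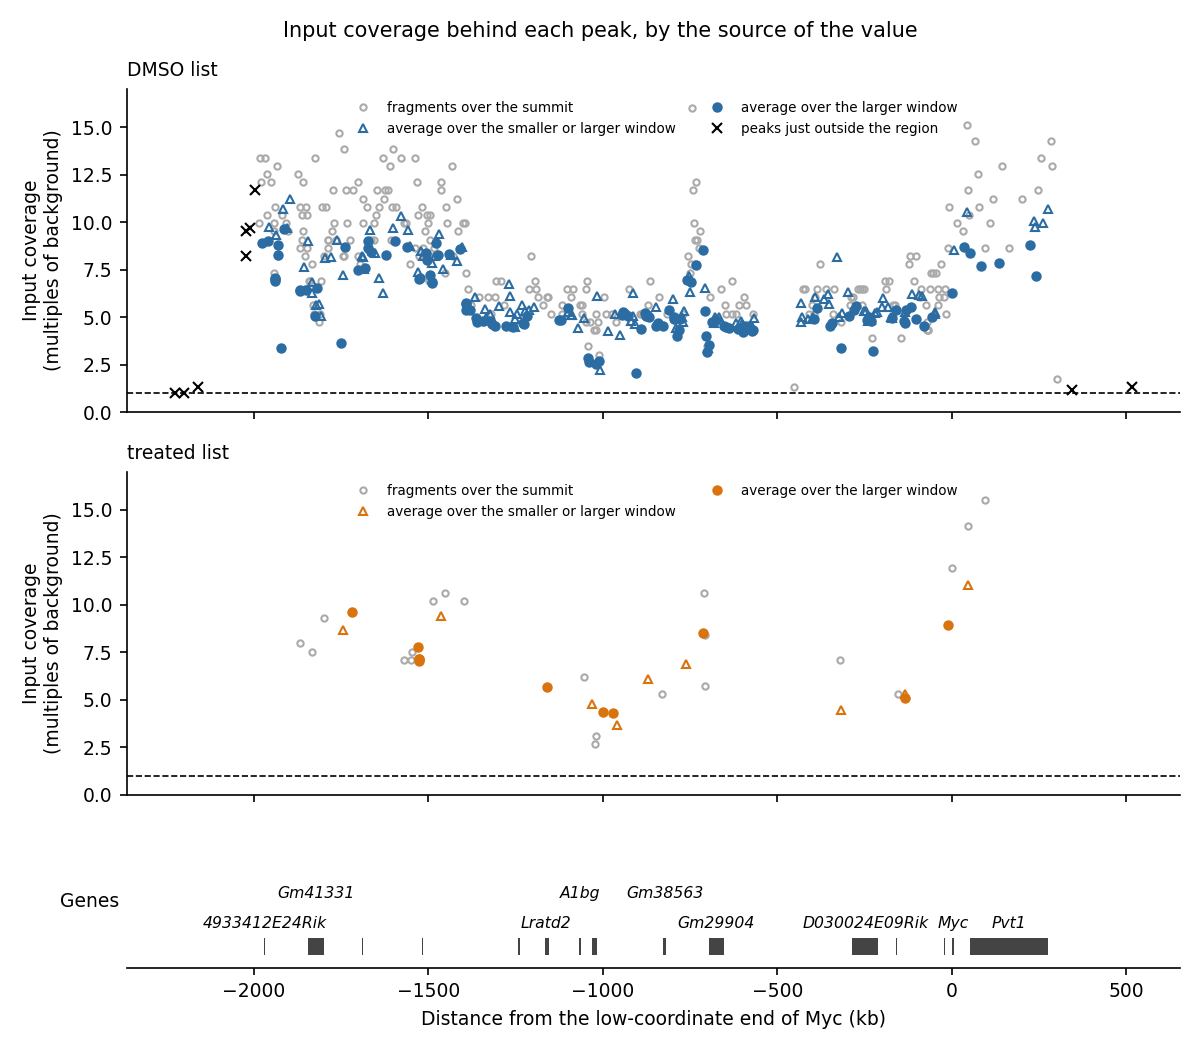
Input coverage behind each DMSO peak (top) and treated peak (middle), in multiples of the list's genome background (dashed line at 1), along the region. Filled circles are averages over the larger window, triangles averages over the smaller or larger window, open circles fragments over the summit and crosses peaks just outside the region. The larger-window averages form a high, a middle and a second high level.

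Window averages placed the region's input on 3 levels, whose limits were set by eye after the values were seen. From 60000001 to 60600000 the larger-window averages of the DMSO input had a median of 7.53 times the background (38 windows, 3.37 to 9.64). From 60600001 to 62000000, which holds Lratd2, A1bg and Myc, the median was 4.78 times (81 windows, 2.08 to 8.52). From 62000001 to 62300000, which holds Pvt1, it was 8.12 times (6 windows, 7.16 to 8.79). The level thus dropped near 60600000 and rose again around Myc, with a shorter rise inside the middle stretch, where the average reached 8.52 times at the summit at 61271338. The treated input, a separate library, gave medians of 7.18 times (5 windows) in the first stretch and 5.38 times (6 windows) in the second. At 6 treated summits a DMSO window lay within 5 kb, and there the ratio of treated to DMSO input, each over its background, was between 0.998 and 1.12. Of these 6, 4 used the same DMSO window. At these positions, which do not include Myc or Pvt1, the inputs of vehicle and treated cells stood at nearly the same level. Counts over close summits differed more, in both directions. In Pvt1, at 62079285, treated input was 15.5 times its background and DMSO input 8.64 times. At 60416298 they were 7.09 and 9.94 times.

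Peak form differed between the stretches. In the first stretch DMSO peaks stood at 30.8 per 100 kb, with a median pull-down of 120 fragments and a median fold of 4.46. In the middle stretch they stood at 20.8 per 100 kb, with 84 fragments and a fold of 5.13. In the Pvt1 stretch there were 10.0 per 100 kb, with 142 fragments, a fold of 4.55 and the largest median width, 6355 bp. The Pvt1 stretch thus had the fewest but widest peaks, and the most captured fragments. Treated peaks numbered 16, 22 and 3 in the 3 stretches.

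Myc (61985341 to 61990361) lay under the DMSO peak of highest fold in the region. It spanned 61977293 to 61990232 (12.9 kb), covered 97.4% of the gene and had its summit 526 bp below the low-coordinate end. Its fold was 10.2, with 196 fragments (95% Poisson interval 170 to 225, counting error only) over an input of 14.5. By fold it ranked 4146 in the DMSO list, but by −log10 q (96.8) it ranked 19, since q grows with the number of fragments. A second DMSO peak, 61990363 to 61997130, had its summit 400 bp beyond the other end, with a fold of 5.81 and 148 fragments over an input of 19.7. Both ends of Myc thus had a summit within 1 kb. The treated peak at Myc was narrow, 61984683 to 61985281 (599 bp), with its summit 319 bp below the low-coordinate end and 207 bp from the DMSO summit. It had 150 fragments (interval 127 to 176) over an input of 27, and a fold of 2.39. That input was counted over the summit, whereas the DMSO input of 14.5 was an average over the larger window. The inputs, and the folds that rest on them, are thus not like measures. Over the pull-down background of its own list, the DMSO summit stood at 68.2 times and the treated summit at 29.2 times. These ratios belong to separate lists of unknown depth per sample, so their difference has no replicate check. The strongest treated peak near Myc by fold lay 11.2 kb below it, at 61974166, with a fold of 3.68 and 175 fragments.

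**Figure D4:**
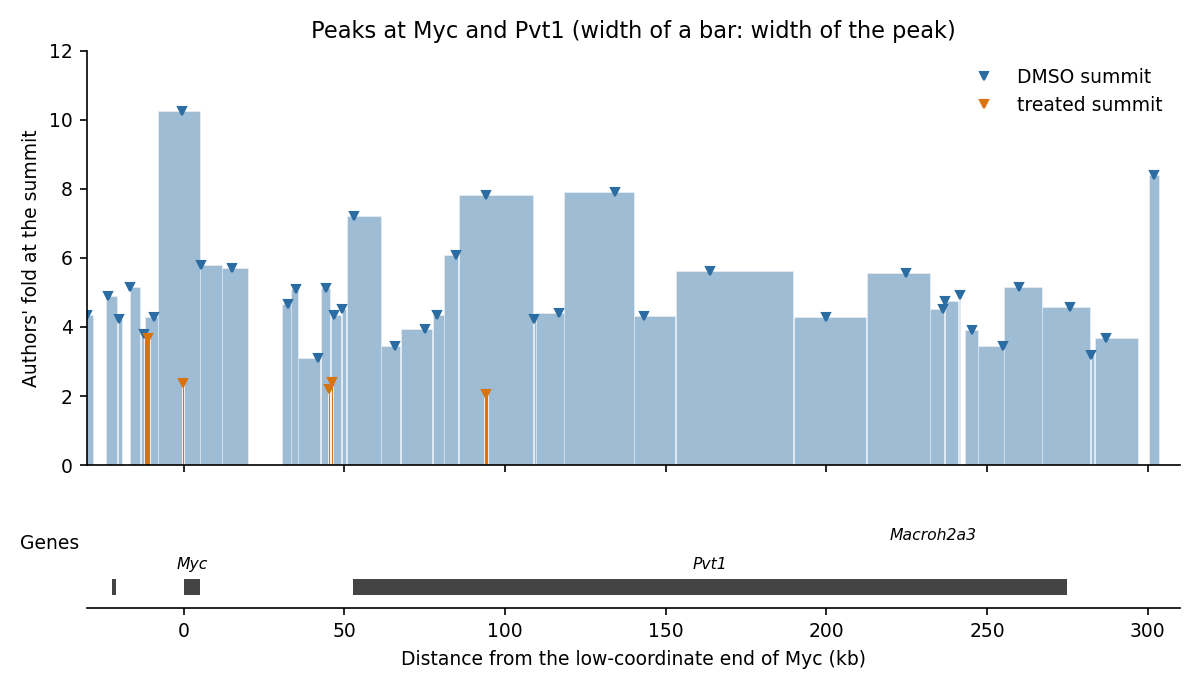
Authors' fold at the summit (y axis) of each DMSO peak (blue) and treated peak (orange) around Myc and Pvt1, with bar width equal to peak width and the x axis in kb from the low-coordinate end of Myc. The DMSO peak over Myc has a fold of 10.2, DMSO peaks cover 98.0% of Pvt1, and 1 narrow treated peak lies inside Pvt1.

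Pvt1 (62037986 to 62260215, 222 kb) lay almost wholly under DMSO peaks. It held 19 DMSO summits, and 20 peaks covered 98.0% of it, including most of Macroh2a3, a histone pseudogene within it. Folds ran from 3.45 to 7.90 with a median of 4.52, and input coverage from 16.6 to 33 fragments. At its low-coordinate end a peak (62035982 to 62046594) had its summit 309 bp inside the gene, with a fold of 7.22 and 182 fragments. Further in, a peak of 23.0 kb (62071096 to 62094062) had a fold of 7.83 and the most captured fragments of the region, 203. The peak of highest fold in the gene, 7.90, spanned 62103703 to 62125411 and had 187 fragments. The widest DMSO peak of the region, 36.5 kb from 62138477 to 62175018, had a fold of 5.61. The peaks with folds of 7.22, 7.83 and 7.90 lay in the part of Pvt1 nearer to Myc. The other 16 peaks had 106 to 165 fragments (median of all 19, 145). Folds in that nearer part were also as low as 3.46, at 62050932, and a fold of 5.55 lay further along, at 62210002. Treated cells had 1 summit in Pvt1, at 62079285, 14 bp from the DMSO summit of 203 fragments, with 167 fragments over an input of 35 and a fold of 2.07. The DMSO input at that summit was 20 fragments, and both inputs were counted over the summit. Of the 41 treated members this one had the lowest fold and the highest input. A pair of treated peaks between Myc and Pvt1, at 62030581 and 62031476, had folds of 2.20 and 2.40.

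Lratd2 (60818996 to 60826105), a protein-coding gene of the LRAT-domain family, was wholly under 1 DMSO peak (60815940 to 60827497). That peak's summit lay 887 bp inside the high-coordinate end, with a fold of 8.60 and 159 fragments (interval 135 to 186) over an input of 14. The widest treated peak of the region (60822155 to 60825759, 3605 bp) lay inside the same peak, with its summit 456 bp from the DMSO summit. It had a fold of 3.95 and 122 fragments over an input of 12.8. Both summits also fall in 9930014A18Rik, an lncRNA gene that overlaps Lratd2, so the peaks cannot be given to one gene. The next DMSO peak, from 60827607 to 60831465, had a fold of 5.27 and 97 fragments, and the one after it, from 60832080 to 60857406 and 25.3 kb wide, had a fold of 8.69. Lratd2 and Myc were thus the protein-coding genes whose peaks were among the 10 of highest fold in the DMSO members.

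The other protein-coding genes, A1bg, which encodes a plasma glycoprotein, and 4933412E24Rik, were also wholly covered. The A1bg peak had a fold of 5.08 and 87 fragments, and that of 4933412E24Rik a fold of 5.19 and 138 fragments, both near the region's median fold. Among lncRNA genes, D030024E09Rik held 20 DMSO summits and no treated summit. Gm41331 held 17 and 2, Gm29904 held 8 and 0, and 4930402D18Rik held 4 and 3. Gm38563, whose promoter is printed above, lay under 1 peak with a fold of 7.91. 4930402D18Rik was the gene least covered by DMSO peaks, at 17.8%, and had treated folds of 3.26, 3.91 and 3.70. Its input was among the lowest of the region, with 10.8, 6 and 7 fragments beneath its treated peaks. All 22 genes met a DMSO peak and 12 were wholly covered. Gene bases were 80.9% under DMSO peaks, against 63.6% of the other bases. Pvt1, 222 kb long and 98.0% covered, weighs heavily in the gene share. The next longest genes, D030024E09Rik, Gm41331 and Gm29904, were 60.3%, 44.5% and 71.3% covered, so the contrast is not read as a trait of genes.

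Most summits lay away from genes. Of the DMSO summits 4 of 506 (0.791%, exact Clopper-Pearson 95% interval 0.216 to 2.01%, counting error only) were within 1 kb of where a protein-coding gene ends on either side, against 57.2% of the whole list. The 4 were both ends of Myc and 1 end each of Lratd2 and 4933412E24Rik. The region holds only 4 protein-coding genes, so few of its bases lie that close to an end. A low share therefore follows from its gene content, in either list, and is not read as a trait of the peaks. Inside a gene of any kind lay 76 of 506 (15.0%), against 58.2% of the whole list, and genes take up 19.3% of the region's bases. In the treated list 1 of 41 summits was at such a gene end, that of Myc, against 26.9% of the whole list, and 7 of 41 (17.1%) lay in a gene, against 47.0%. Of the 10 DMSO peaks of highest fold, 8 had a summit outside every gene, among them the Myc peak and the 2 members of low input given above. The remaining 5 had summits at 60708897 (fold 8.81, 125 fragments), 60836239 (8.69, 139 fragments), 60235368 (8.65, 100 fragments, 247 bp wide), 60739788 (8.61, 137 fragments) and 60973917 (8.41, 74 fragments). In the same order they lay 110.1, 10.1, 218.8, 79.2 and 52.6 kb from the closest protein-coding gene. Gm7086, a pseudogene, lay wholly under the peak at 60739788.

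**Figure D5:**
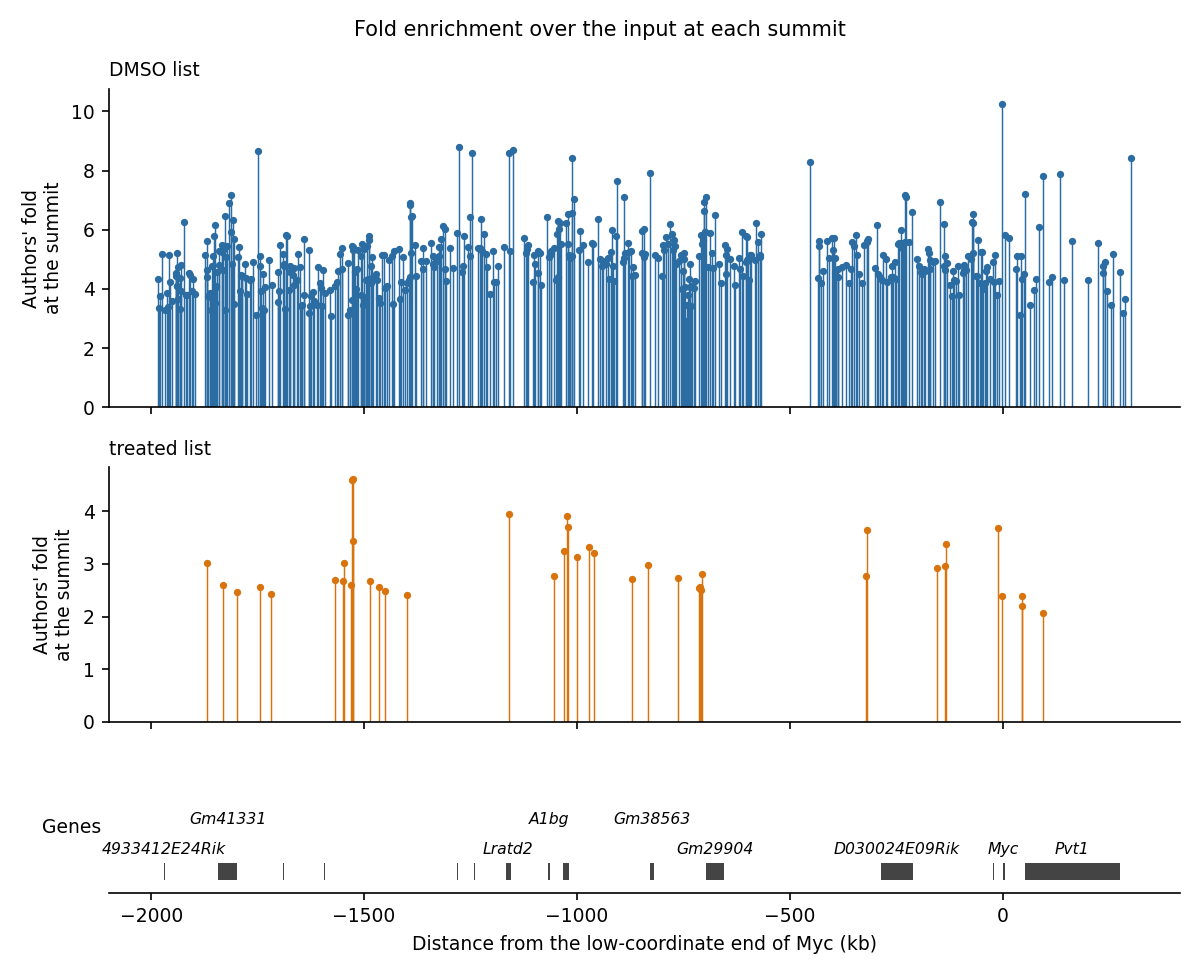
Authors' fold at the summit of each DMSO peak (top) and treated peak (middle) along the region, with the x axis in kb from the low-coordinate end of Myc and genes drawn below. The y axes differ, since the lists were made separately. The highest DMSO fold is at Myc (10.2), and the highest treated folds (4.61 and 4.59) lie far below it, between Gm41331 and Lratd2.

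The treated peaks of highest fold lay far from protein-coding genes. Summits at 60458694 and 60457709 had folds of 4.61 and 4.59, with 175 and 177 fragments over inputs of 15.9 and 16.2. They ranked 4 and 3 in the treated list by −log10 q (20.4 and 20.6). Another summit beside them, at 60459157, had a fold of 3.43 and 132 fragments. This group of treated peaks was 359.8 to 361.3 kb from Lratd2. The DMSO summits nearest to 60458694 and 60459157 lay 2 and 0 bp away, with folds of 5.40 and 5.30, so summits of the lists coincided there.

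Treated peaks mostly fell within DMSO peaks. Of the 41, 34 met a DMSO peak by at least 1 bp (82.9%, interval 67.9 to 92.8%), against 40.7% of the whole treated list. This share is to be read beside the 66.9% of the region's bases that DMSO peaks cover. Wholly inside a DMSO peak lay 31 treated peaks. By summit the match was looser, since 10 treated summits lay within 100 bp of a DMSO summit and 18 within 500 bp, with a median of 883 bp. Of the DMSO peaks 32 of 506 met a treated peak (6.32%, interval 4.37 to 8.81%), against 2.90% of the whole list. These 32 had a median fold of 5.14 and a median of 120.5 fragments, against 4.89 and 93 for the other 474. They were also wider, at 2983 against 1943 bp, and had more input, at 18.0 against 14.8 fragments. The part of width and input in the overlap was not tested. At each of these 34 treated peaks the pull-down, over its own background, was no higher than that of the nearest DMSO summit over its background. That summit lay up to 4673 bp away, so the values are not from the same bases. The DMSO list also holds only peaks of −log10 q 18.5 or more, against 3.38 for the treated list. This favoured the DMSO value, so no conclusion is drawn.

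The 7 treated peaks that met no DMSO peak had summits at 60954261, 60962610, 60984475, 61014092, 61223662, 61831194 and 61851243, all in the middle stretch. Their folds were 2.74 to 3.91 and their captured fragments 60 to 101. Input beneath them had a median of 10.8 fragments, against 17.3 beneath the 34 others. The nearest DMSO summit was 765 bp from the one at 61851243 and 5523 bp from the one at 60954261. They thus lay in gaps of the DMSO list, within the stretch of lower coverage, although input at 61223662 was 6.90 times the background. Over all 22 treated peaks of that stretch the median was 89.5 captured fragments and an input of 5.50 times the background. The part of the stretch in the contrast with the 34 others was not tested. Where the DMSO list has no peak it gives no DMSO coverage.

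Genes of the Myc network elsewhere in the genome that had a peak did not share the high input. A list of 13 genes of the Myc network was matched in full, and 6 of them had a DMSO summit inside or within 1 kb: Mxd1, Mxi1, Mxd3, Mxd4 and Mnt, which encode Max-binding antagonists of Myc, and Mlxip, which encodes a partner of Mlx. Their highest folds per gene were 12.5 to 20.9, and input was at most 1.30 times the background. Mxd1 also had a treated summit, with a fold of 5.61. Of 18 genes often gained in copy in tumours or cultured cells, 9 had a DMSO summit and 0 a treated one, among them Mdm2, which encodes the inhibitor of p53, and Cdk4, which encodes a cell-cycle kinase. Input at these 9 was at the background except at Ccnd2, a cyclin gene, with 2.59 times over the summit. At Myc itself it was 6.27 times. Genes of either list with no peak, among them Max, Mycn and Mycl, have no input value here.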

How the data were processed

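Break ends were measured by BrITL in 6 samples of mouse embryonic fibroblasts, 2 pull-downs and 1 input per condition. The authors deposited 1 narrowPeak list per condition. Names in the lists say that all pull-downs were set against all inputs, and each condition had 1 input. Per the submitters' processing notes, the build was mm10 and the tools were MACS2 2.1.0, Picard 1.141, STAR 2.5.2a, bcl2fastq 2.17.1.14 and SAMtools 0.1.19. Their roles and settings, the filter that left the deposited peaks and the depth per sample are not given in the sources used here. A peak carries a deposited score (the whole part of 10 times −log10 p), the authors' fold (a ratio at the summit) and, as deposited, its −log10 p and −log10 q. The fold (with its added 1) and Poisson p were inverted to pull-down and input fragments. Values were accepted within 0.02 of a whole scaling step, which held for 100% of peaks. The inversion was tested on simulated data (300 peaks per list, 100% right). The input term cannot fall below the genome's background. Genes came from a RefSeq table of GRCm38.p6 without strand or exons. Tests were none: shares have exact Clopper-Pearson 95% intervals, counts Poisson ones. Genes and peaks named were those of the region, the 10 of highest fold and 5 widest per list, those nearest its limits, the extreme bins and treated peaks without a DMSO peak. The members and lists were chosen with earlier results of these data known. A gene of the planned list of genes often gained in copy is not reported here. Python 3.11.15, NumPy 2.4.6, SciPy 1.17.1, pandas 2.3.3 and Matplotlib 3.10.9 were used. Alternatives were a stricter q, wider limits, joined peaks, and other overlap and gene rules.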

Additional observations from a re-analysis of the deposited data

How the results depend on the processing

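Of 19 alternative values for 11 results, 9 stayed within 1.5 times the count or within the interval of the value, and 10 moved. With peaks at or above their list's median −log10 q alone, the region held 176 DMSO and 14 treated peaks. The median fold was then 5.31 (DMSO) and 3.32 (treated), the DMSO input median 7.78 times the background and the share of DMSO peaks meeting a treated peak 10.8%. Joining peaks up to 1 kb apart left 148 DMSO blocks. With genes of every kind, 3.36% of DMSO summits were at a gene end. With protein-coding genes only, 0.395% of DMSO and 2.44% of treated summits lay inside a gene. Beyond the change in which peaks or genes were counted, the cause was not tested. No paired analysis was possible because the lists are pooled and hold no value per sample, and for the same reason no replicate could be left out. Depth per sample is unknown, and intervals cover counting error only.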
